A study of Mus musculus with 13 samples.

Results

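Glycolysis and the response to low oxygen were followed through 34 genes, given by name as the enzymes of the path from glucose to lactate, the carriers of glucose and lactate, the oxygen sensors and a few of the genes they control. All 34 were found by symbol among the 22609 genes of the tumour table and of the fat table. The libraries were mouse RNA-seq libraries of the C57BL/6 strain. Tumours of E0771, a transplantable mouse mammary cancer line, came from 3 wild-type (WT) hosts and 3 KO hosts. Visceral fat was collected after HFD (high-fat diet) feeding from WT mice (3 libraries) and KO mice (4 libraries). KO stands for loss of PD-L1, the T cell-restraining ligand encoded by Cd274, in fat, as the series title gives it; E0771 cells are not labelled as altered. The labels name neither the promoter that drives the deletion nor the age of the mice, and do not say that each replicate was its own animal, so the p-values reflect variation among these libraries, which may be technical. The WT fat columns carry the numbers 1, 3 and 4, and are called by them here.

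Glycolysis turns glucose into pyruvate through a chain of enzymes, most of which exist as several isoforms that differ between cell types. Lactate dehydrogenase turns pyruvate into lactate, while the pyruvate dehydrogenase kinases hold pyruvate back from the mitochondria. When oxygen is scarce, the prolyl hydroxylases stop marking the HIF alpha subunits for breakdown, and HIF then binds response elements with the core ACGTG or GCGTG and raises carriers, glycolytic enzymes and survival genes. In fat, glucose feeds lipid storage in adipocytes, and activated macrophages are known for high rates of glycolysis.

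Promoters are shown for members of the oxygen response and of its glycolytic branch, since they show how unequally the core is spread. Each is a window of the RefSeq table for GRCm38.p6, from 250 bases before to 50 bases after an annotated start, read on the strand of the gene, with every ACGTG or GCGTG on either strand in capitals (the reverse complements read CACGT and CACGC, so overlapping matches run together). The windows are Bnip3 at chr7:138909457-138909756, Pfkfb3 at chr2:11502041-11502340 and Ankrd37 at chr8:45999801-46000100, all on the minus strand, Car9 at chr4:43506776-43507075 on the plus strand, and Eno2 at chr6:124769624-124769923 on the minus strand. Eno2 was picked after its values were seen, as a member whose window holds no match.
Bnip3 promoter: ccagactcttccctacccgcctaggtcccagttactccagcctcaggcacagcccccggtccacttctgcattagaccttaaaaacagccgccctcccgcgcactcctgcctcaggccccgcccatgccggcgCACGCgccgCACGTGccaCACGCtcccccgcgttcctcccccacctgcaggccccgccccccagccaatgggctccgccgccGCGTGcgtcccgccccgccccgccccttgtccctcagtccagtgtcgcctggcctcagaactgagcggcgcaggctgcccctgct
Pfkfb3 promoter: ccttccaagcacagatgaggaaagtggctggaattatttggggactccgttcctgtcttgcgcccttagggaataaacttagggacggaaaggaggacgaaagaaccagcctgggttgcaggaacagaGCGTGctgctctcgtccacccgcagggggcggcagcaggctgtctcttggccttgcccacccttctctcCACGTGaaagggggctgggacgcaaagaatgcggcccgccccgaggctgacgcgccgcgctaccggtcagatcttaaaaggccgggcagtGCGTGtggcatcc
Ankrd37 promoter: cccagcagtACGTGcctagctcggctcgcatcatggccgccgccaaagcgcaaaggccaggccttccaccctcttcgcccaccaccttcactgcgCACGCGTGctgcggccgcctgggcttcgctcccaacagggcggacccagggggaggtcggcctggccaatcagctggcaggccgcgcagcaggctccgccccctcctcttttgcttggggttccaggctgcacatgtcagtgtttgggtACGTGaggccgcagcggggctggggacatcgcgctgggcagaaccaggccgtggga
Car9 promoter: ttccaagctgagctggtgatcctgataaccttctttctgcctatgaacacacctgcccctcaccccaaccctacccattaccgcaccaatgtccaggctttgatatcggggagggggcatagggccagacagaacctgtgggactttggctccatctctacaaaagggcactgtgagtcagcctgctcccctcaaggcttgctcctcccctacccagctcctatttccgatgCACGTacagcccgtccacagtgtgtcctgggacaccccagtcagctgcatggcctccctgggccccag
Eno2 promoter: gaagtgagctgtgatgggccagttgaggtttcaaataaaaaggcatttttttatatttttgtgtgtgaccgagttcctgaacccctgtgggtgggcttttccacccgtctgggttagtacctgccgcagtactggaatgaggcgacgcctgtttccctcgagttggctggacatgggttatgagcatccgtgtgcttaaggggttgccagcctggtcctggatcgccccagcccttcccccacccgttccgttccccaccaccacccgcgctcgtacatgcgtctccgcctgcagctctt

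The Bnip3 window held 5 matches, that of Ankrd37 4, the Pfkfb3 window shown 4, and that of Car9 1. Pfkfb3 has another window in the table, at chr2:11553880-11554179, with 1 match; the one with more matches is shown. Of the 31 members with a window in the table, 28 (90.3%) had at least 1 match in some window, against 46.7% of 27025 genes. Member windows also differed in base composition, with a median of 20 CpG dinucleotides against 7 over all windows, and both motifs contain a CpG. In fat, 6 of 8 members that rose, 7 of 7 that fell and had a window, and 14 of 15 that did not pass carried a match, so the motif was present in members of either direction. A match is only a run of letters in the window. Epas1, Slc2a3 and Ndrg1 were the members without a window.

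The tumour libraries carried between 22834259 and 34706555 gene reads, and the fat libraries between 29362788 and 41534662. Cd274 itself did not pass in fat, at 543.9 ± 17.6 (SD, n = 4) in KO against 590.2 ± 129 (SD, n = 3) in WT, with an adjusted limma p of 0.66. A whole-gene level in whole tissue cannot show a deletion of part of a gene or in some cells only. It therefore does not check the KO label, and every direction rests on the labels. The tissue labels were checked against defining markers: the summed level of 15 adipocyte markers was 310800 to 1312000 over the fat libraries and 3517 to 3996 over the tumours, 2 tables that were scaled separately. In fat, 14 of the 15 adipocyte markers fell (KO sums 310800 to 501400, WT 1037000 to 1312000), 10 of 10 endothelial markers fell (24570 to 39620 against 57310 to 77080), and 13 of 15 macrophage markers rose (357800 to 509700 against 69230 to 202800). For comparison, 16.8% of all genes tested in fat rose and 17.4% fell. Male germ cell markers summed to 55.7 to 760.5 in WT fat and 1.08 to 4.54 in KO fat. All 8 were lower in every KO library than in every WT library, and 1 of the 8 was high enough to test. What these reads came from was not tested. In such whole tissue, fewer cells of a type and less RNA per cell cannot be told apart, and the part of these markers in the results for glycolysis was not tested.

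In visceral fat, glycolysis genes moved in both directions, and in several families 1 isoform rose while another fell. Only for the hexokinases did both calls hold when each library was left out in turn. The hexokinase Hk3, the enolase Eno2, the acid-regulating enzyme Car9 and the kinase Pdk1 were higher in KO fat, while the hexokinase Hk2, the bifunctional enzyme Pfkfb3, the lactate dehydrogenase Ldhb and the mitophagy gene Bnip3 were lower. Of 33 members tested with limma on log2(value + 1), 8 rose and 8 fell at a Benjamini-Hochberg adjusted p under 0.05 (24.2% in each direction), and 17 did not pass. Over all 14455 genes tested, 16.8% rose and 17.4% fell. The groups did not overlap for 17 members, 7 with every KO library above every WT library (21.6% of all genes) and 10 with every KO library below (22.1% of all genes). The members' median log2 fold change, KO minus WT, was -0.25 against 0 over all genes, and their median size without sign was 0.54 against 0.41. Without WT 3, 4 members rose and 4 fell (12.1% each), and the calls over all genes also dropped, to 11% that rose and 10.4% that fell. In an exact permutation test of the group labels, p was 0.057 for Slc2a1, Hk2 and Epas1 and 0.086 for Slc16a3, although each passed limma. For every other member that passed limma the permutation p was 0.029, the lowest that 35 relabellings can give.

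**Figure D1:**
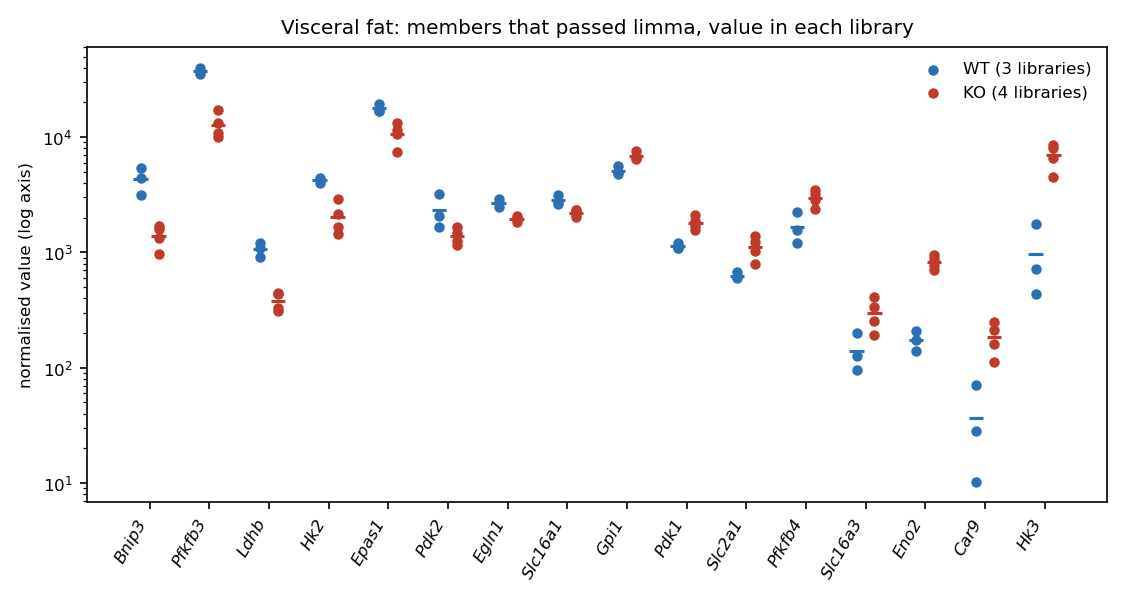
Normalised value (log axis) of the 16 members that passed in visceral fat, one point per library (blue WT, n = 3; red KO, n = 4) with the group mean as a bar, ordered by fold change. The groups are apart for every gene shown except Slc16a3, where the lowest KO library (191.6) lies under the highest WT library (201.3).

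Glucose enters cells through carriers of the Slc2a family. Slc2a1, which encodes the widespread basal carrier GLUT1, measured 1385, 1226, 789.0 and 1028 in KO 1 to 4, and 677.0, 609.5 and 597.0 in WT 1, 3 and 4. All 4 KO libraries were above the WT libraries, with KO 3 nearest to them. Slc2a1 rose 1.73-fold (log2 fold change 0.79, SE 0.19, limma adjusted p = 0.014), a call that was lost without WT 3 (adjusted p = 0.0535). Slc2a3, the high-affinity carrier GLUT3, did not pass (log2 fold change -0.68, SE 0.34, limma adjusted p = 0.152). Its values were even in KO, at 217.9 to 234.8, and ran from 206.5 to 659.9 in WT. Per kb of exon, Slc2a3 made up 9.48% ± 2.32 of the sum of both carriers in KO (SD, n = 4, range 7.49% to 12.6%). In WT it made up 23.4% (range 12.9% to 34.8%, n = 3), so the groups were apart by a narrow gap.

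Hexokinases trap glucose in the cell as glucose 6-phosphate, and in fat Hk3 rose while Hk2 fell. Hk3 (chr13:55005985-55021385, minus strand, GRCm38), an isoform known from myeloid blood cells, measured 8122, 8628, 4526 and 6571 in KO 1 to 4. In WT 1, 3 and 4 it measured 1760, 718.0 and 436.2. Every KO library was above every WT library, and the nearest pair was KO 3 and WT 1. Hk3 rose 8.23-fold (log2 fold change 3.04, SE 0.43, limma adjusted p = 0.00194), the largest rise among the members.

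Hk2 (chr6:82725025-82774454, minus strand), the insulin-responsive isoform of muscle and fat, went the other way. It measured 1658, 1447, 2932 and 2153 in KO 1 to 4 and 4387, 4325 and 3992 in the WT libraries. The 3 WT libraries were close together and above all KO libraries, of which KO 3 was the highest. Hk2 fell by 1.10 on the log2 scale (SE 0.22, limma adjusted p = 0.00704), 2.15-fold lower in KO. Hk1, the isoform of most tissues, lay at 2866 to 3438 in KO and 2005 to 3070 in WT and did not pass (log2 fold change 0.42, SE 0.16, limma adjusted p = 0.069). Per kb of exon, Hk3 made up 71.3% ± 9.46 of the 3 hexokinases in KO fat (range 58.3% to 78.4%) and 19.4% ± 9.78 in WT fat (11.6% to 30.4%). Hk2 made up 13.9% ± 6.79 in KO and 57.6% ± 9.72 in WT. The hexokinase present at the highest level per length was therefore Hk3 in each of the 4 KO libraries and Hk2 in each of the 3 WT libraries.

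**Figure D2:**
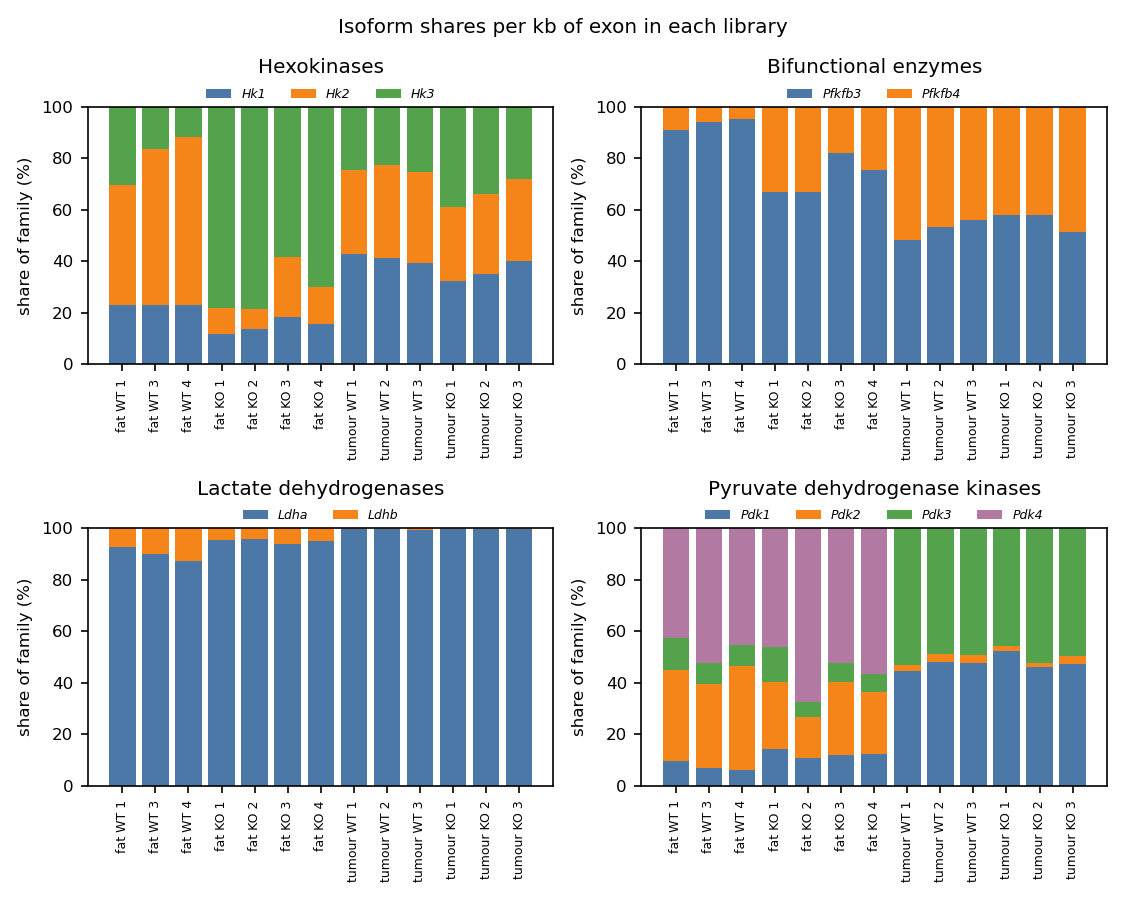
Share of each isoform (percent of its family's sum, normalised values per kb of exon) in each library, for hexokinases, bifunctional enzymes, lactate dehydrogenases and pyruvate dehydrogenase kinases. In fat, Hk3 takes 58.3% to 78.4% of the hexokinases in KO and 11.6% to 30.4% in WT, while in the tumours the 3 hexokinases have more even shares in both groups.

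Of the 7 members between glucose 6-phosphate and the triose phosphates, 1 passed. Gpi1, the glucose 6-phosphate isomerase, measured 7512, 6872, 6594 and 6506 in KO 1 to 4 and 5575, 4986 and 4832 in WT 1, 3 and 4, with all KO libraries above WT. Gpi1 rose 1.34-fold (log2 fold change 0.42, SE 0.11, limma adjusted p = 0.0197), a call lost without KO 2, without WT 3 or without WT 4, and 24.5% of the 50-base words of its transcripts also occur in other annotated genes. The 3 phosphofructokinases, which commit sugar to glycolysis, did not pass. Their log2 fold changes were -0.47 for Pfkl (liver type, SE 0.16, limma adjusted p = 0.052), -0.54 for Pfkm (muscle type, SE 0.21, 0.0817) and -0.25 for Pfkp (platelet type, SE 0.14, 0.174). Pfkl and Pfkm were below every WT library in every KO library, as were 22.1% of all genes. The gaps were narrow, from 4418 in KO to 4433 in WT for Pfkl and from 670.0 to 689.1 for Pfkm. The share of each of the 3 isoforms per kb overlapped between the groups. The aldolase Aldoa, at 26760 to 38490 in KO and 34990 to 42450 in WT, did not pass (log2 fold change -0.31, SE 0.18). Neither did Aldoc, the brain-type aldolase, at 46.3 to 144.6 and 35.2 to 53.3 (0.76, SE 0.39). Tpi1, the triose phosphate isomerase, ran from 9655 to 11580 in KO and from 11200 to 19600 in WT (log2 fold change -0.50, SE 0.19, limma adjusted p = 0.0728).

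The bifunctional enzymes make and break fructose 2,6-bisphosphate, the strongest activator of phosphofructokinase, and the pair moved in opposite directions. Pfkfb3 (chr2:11471433-11554077, minus strand), the form with the highest kinase over phosphatase activity, measured 10910, 10090, 17040 and 13380 in KO 1 to 4. In WT 1, 3 and 4 it measured 35330, 39990 and 37350. The highest KO library, KO 3, stayed far under the lowest WT library. Pfkfb3 fell by 1.57 on the log2 scale (SE 0.20, limma adjusted p = 0.00138), 2.98-fold lower in KO.

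Pfkfb4, a form known for its induction by hypoxia, measured 3466, 3216, 2381 and 2828 in KO 1 to 4 and 2228, 1557 and 1219 in WT 1, 3 and 4. The gap between the groups was narrow, from 2228 in WT 1 to 2381 in KO 3. Pfkfb4 rose 1.82-fold (log2 fold change 0.86, SE 0.21, limma adjusted p = 0.0156), a call lost without WT 3 (0.0583). Its share of the pair per kb was 27.1% ± 7.37 in KO and 6.47% ± 2.15 in WT, so Pfkfb3 remained the larger part in all 7 fat libraries.

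Lower glycolysis was carried by few countable members. Eno2 (chr6:124760053-124769673, minus strand), the enolase isoform named for neurons, measured 781.5, 959.1, 698.2 and 871.7 in KO 1 to 4 and 208.2, 138.9 and 173.2 in WT 1, 3 and 4. The lowest KO library, KO 3, was far above the highest WT library, WT 1. Eno2 rose 4.78-fold (log2 fold change 2.26, SE 0.18, limma adjusted p = 0.000678). Its window, shown above, holds neither core motif. Eno1, the enolase of most cells, was listed at 0 in all 7 fat libraries and in 5 of 6 tumours, with 4.65 in tumour WT 3. Pgk1, the phosphoglycerate kinase, lay at 97.2 to 362.1 in KO and 90.3 to 178.0 in WT (log2 fold change 0.23, SE 0.47, limma adjusted p = 0.73). Pgam1, the phosphoglycerate mutase, lay at 293.3 to 412.2 and 283.6 to 454.2 (log2 fold change -0.04, SE 0.20, limma adjusted p = 0.886).

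These low levels touch how far the lower enzymes can be read. Of the 50-base words in the annotated transcripts, 68.0% of Pgk1, 59.1% of Bnip3, 49.5% of Eno1 and 41.5% of Pgam1 are also found in other annotated genes, mostly pseudogenes. Gpi1 (24.5%), Ldhb (21%), Pfkp (15.4%), Ndrg1 (12.3%), Ankrd37 (11.4%) and Ldha (10.4%) followed, and each of the other members had under 10%. Gapdh, the enzyme of the path between Tpi1 and Pgk1 and no member, was named after its values were seen. It had 58.4% of words shared, and its level is not given here. How reads that match several places were treated in these genes was not tested, so a level of Eno1, Pgk1, Pgam1 or Bnip3 may hold only part of the gene's reads.

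**Figure D3:**
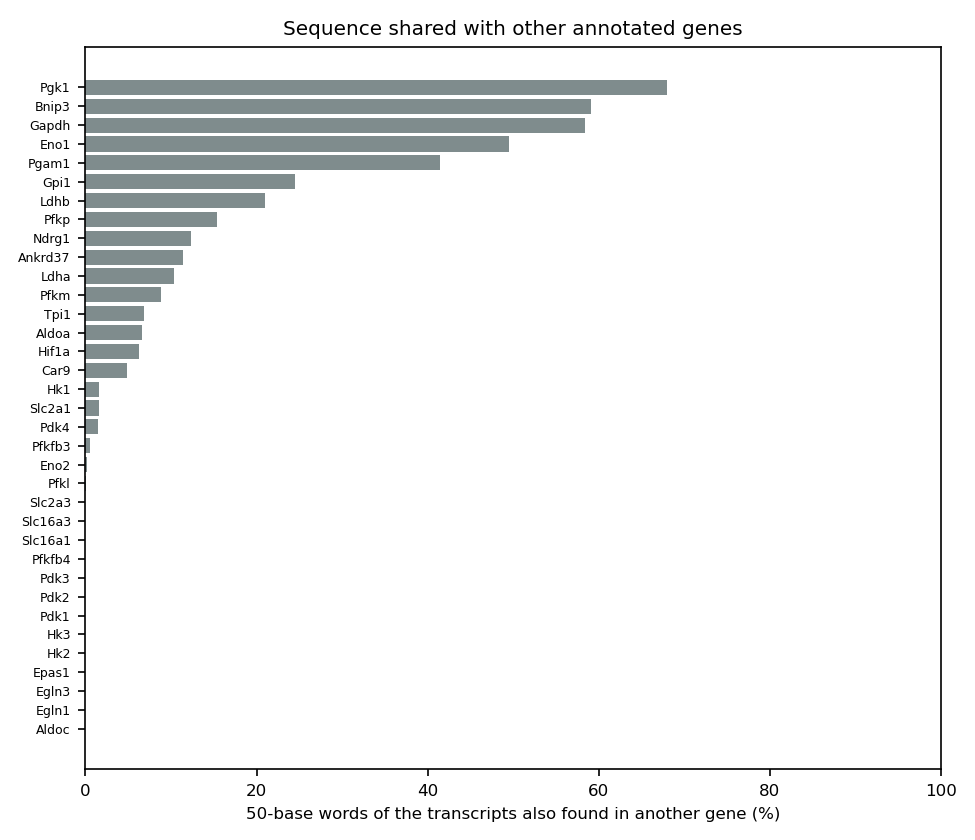
Percent of the 50-base words in each gene's annotated transcripts that also occur in another annotated gene, for the members and Gapdh. Pgk1 (68.0%), Bnip3 (59.1%), Gapdh (58.4%), Eno1 (49.5%) and Pgam1 (41.5%) stand above the rest.

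At the lactate step, Ldhb fell and Ldha did not pass. Ldhb (chr6:142490249-142507957, minus strand), the heart-type subunit that favours pyruvate, measured 442.6, 312.9, 438.5 and 332.6 in KO 1 to 4 and 912.7, 1088 and 1201 in WT 1, 3 and 4. All KO libraries were under the lowest WT library, WT 1. Ldhb fell by 1.49 on the log2 scale (SE 0.17, limma adjusted p = 0.00115), 2.81-fold lower in KO. Ldha, the muscle-type subunit, ran from 13540 to 19200 in KO and from 17590 to 24890 in WT and did not pass (log2 fold change -0.41, SE 0.18, limma adjusted p = 0.105). Per kb, Ldhb made up 4.86% ± 0.786 of both subunits in KO and 9.87% ± 2.71 in WT, without overlap.

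The lactate carriers also moved apart, by smaller and less stable steps. Slc16a1 (MCT1), the carrier for uptake and release, measured 2330, 2149, 2333 and 2045 in KO 1 to 4 and 2718, 2608 and 3163 in WT 1, 3 and 4, with no overlap. Slc16a1 fell by 0.35 on the log2 scale (SE 0.11, limma adjusted p = 0.0406). Slc16a3 (MCT4), the carrier for lactate release in glycolytic cells, measured 335.6, 411.0, 191.6 and 256.0 in KO and 201.3, 126.2 and 95.9 in WT. KO 3 was under WT 1, so the groups overlapped. Slc16a3 rose 2.12-fold (log2 fold change 1.09, SE 0.32, limma adjusted p = 0.0317). The call of Slc16a1 was lost in 6 of the 7 fits that left out 1 library (all but that without KO 1), and that of Slc16a3 in 5 of 7 (all but those without KO 3 and without WT 1).

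Among the pyruvate dehydrogenase kinases, Pdk1, a HIF target, measured 1560, 2116, 1695 and 1864 in KO 1 to 4 and 1091, 1085 and 1211 in WT 1, 3 and 4. The WT libraries were close together and all under the KO libraries. Pdk1 rose 1.59-fold (log2 fold change 0.67, SE 0.13, limma adjusted p = 0.00545). Pdk2, the widespread isoform, measured 1169, 1254, 1655 and 1482 in KO and 1658, 2068 and 3236 in WT, with KO 3 just under WT 1. Pdk2 fell by 0.69 on the log2 scale (SE 0.23, limma adjusted p = 0.0448), a call lost without a filter on low values and in 5 of 7 fits that left out a library (KO 1, KO 2, KO 4, WT 3 or WT 4). Pdk3 (log2 fold change -0.25, SE 0.17) and Pdk4, the isoform induced by fasting and fatty acids (0.19, SE 0.33), did not pass. Pdk4 was the largest of the 4 per kb in fat, at 55.7% ± 9.01 in KO and 46.8% ± 5.07 in WT, and was too low to test in the tumours.

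None of the oxygen sensing members was higher on average in KO fat. Epas1, which encodes HIF-2 alpha, measured 7423, 10640, 13150 and 11430 in KO 1 to 4 and 16970, 19390 and 16990 in WT 1, 3 and 4. All KO libraries were lower, KO 1 the most. Epas1 fell by 0.77 on the log2 scale (SE 0.20, limma adjusted p = 0.0183). Egln1, the prolyl hydroxylase PHD2, measured 2000, 1843, 2062 and 1941 in KO and 2459, 2692 and 2885 in WT, without overlap. Egln1 fell by 0.45 on the log2 scale (SE 0.10, limma adjusted p = 0.0115). Without WT 3 the adjusted p was 0.0766 for Epas1 and 0.0522 for Egln1. Hif1a (log2 fold change -0.18, SE 0.24) and the inducible hydroxylase Egln3 (-0.23, SE 0.27) did not pass. Epas1 is known to be high in endothelial cells and adipocytes, whose markers were also lower in KO fat, and the part of those cells in its fall was not tested.

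The 4 hypoxia-induced genes did not move as a group. Bnip3 (chr7:138890836-138909519, minus strand), a mitochondrial protein that starts mitophagy, measured 1343, 963.4, 1711 and 1588 in KO 1 to 4 and 3154, 4379 and 5370 in WT 1, 3 and 4. Every KO library was well below WT 1, the lowest WT library. Bnip3 fell by 1.62 on the log2 scale (SE 0.24, limma adjusted p = 0.00212), 3.07-fold lower in KO. Car9 (chr4:43506966-43513729, plus strand), the surface carbonic anhydrase that handles acid in hypoxic tissue, measured 247.3, 212.5, 112.6 and 162.2 in KO and 71.4, 28.4 and 10.3 in WT. It was higher in all KO libraries, but WT values spread over a wide range. Car9 rose 6.13-fold (log2 fold change 2.62, SE 0.57, limma adjusted p = 0.00941), and the fold was 9.71 without WT 1 and 3.84 without WT 4. Ndrg1, a stress-response gene, did not pass (log2 fold change -0.42, SE 0.17, limma adjusted p = 0.091), nor did Ankrd37, a small ankyrin-repeat gene, at 24.5 to 75.5 in KO and 14.6 to 25.4 in WT (log2 fold change 1.07, SE 0.42, limma adjusted p = 0.077).

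The same libraries lay at the edge of their groups for most of these members and for most genes that passed. KO 3 was the KO library nearest to WT in 13 of the 16 members that passed, and WT 1 was the WT library nearest to KO in 13 of 16. Over all 4947 genes that passed, KO 3 was nearest in 56.4% and WT 1 in 64.6%. KO 3 had the lowest macrophage marker sum (357800) and the highest adipocyte sum (501400) of the KO libraries, and WT 1 the highest macrophage sum (202800) and the lowest adipocyte sum (1037000) of the WT libraries. The part of these cell types in the values was not tested.

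The wider pathway in fat was described from lists of genes that are not members. For comparison, 16.8% of all genes tested rose and 17.4% fell, with a median log2 fold change of 0. Among 11 genes of pyruvate entry into mitochondria 1 rose and 7 fell, with a median log2 fold change of -0.65. Pdha1, a subunit of pyruvate dehydrogenase, fell by 0.82 (SE 0.12, limma adjusted p = 0.00218), and Pcx, pyruvate carboxylase, fell by 1.53 (SE 0.23, 0.00218). Pdhx, which anchors a subunit of the same complex, fell by 0.71 (SE 0.13, 0.0045). Among 12 other glucose and lactate carriers 1 rose and 6 fell. Slc2a4, the insulin-responsive carrier GLUT4 of fat and muscle, fell by 2.23 (SE 0.23, limma adjusted p = 0.000939), from 4772 ± 1463 (SD, n = 3) to 998.5 ± 198 (SD, n = 4). The same gene is also among the adipocyte markers summed above. Slc2a12 fell by 2.98 (SE 0.24, 0.000678) and Slc2a9, a urate carrier, rose by 0.81 (SE 0.15, 0.00537).

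In other glycolytic enzymes 3 of 19 rose and 6 fell, where 16.8% of all genes tested rose and 17.4% fell. Pgm2, which belongs to the phosphoglucomutases, fell by 1.19 on the log2 scale (SE 0.13, limma adjusted p = 0.000982), Gpd2, the mitochondrial glycerol phosphate dehydrogenase, by 1.01 (SE 0.15, 0.00208), and the bifunctional enzyme Pfkfb1 by 1.58 (SE 0.24, 0.00218). Of 17 genes of glycogen and gluconeogenesis 1 rose and 8 fell, among them the glycogen phosphorylases Pygl (-1.21) and Pygb (-1.57) and the glycogen synthase Gys1 (-1.43). Of 8 pentose phosphate genes 2 fell, Rpe (-0.81) and H6pd (-1.05). Of 14 genes of oxygen sensing, 1 fell, Vhl (-0.70), which encodes the part of the ligase that recognises hydroxylated HIF. Of 43 other hypoxia-induced genes 10 rose and 15 fell with a median of 0.04, so this list too went both ways. The creatine carrier Slc6a8 rose by 2.14 (SE 0.26, limma adjusted p = 0.00128), Wsb1 rose by 1.08 (SE 0.12, 0.000982) and Stc2 fell by 1.90 (SE 0.23, 0.00124).

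In the tumours, no member passed. Of 32 members tested with the edgeR quasi-likelihood test, 0 rose and 0 fell at a Benjamini-Hochberg adjusted p under 0.05, where 0% of all 13109 genes tested were called. DESeq2 also called 0 members, where it called 0.475% of genes. At an unadjusted p under 0.05, edgeR had 1 member higher (3.79% of all genes) and 2 lower (3.11% of all genes). Eno1 and Pdk4 were too low to test. Every KO library was below every WT library for 1 member (4.93% of all genes), Pdk3, and above for 0 members (5.68% of all genes).

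**Figure D4:**
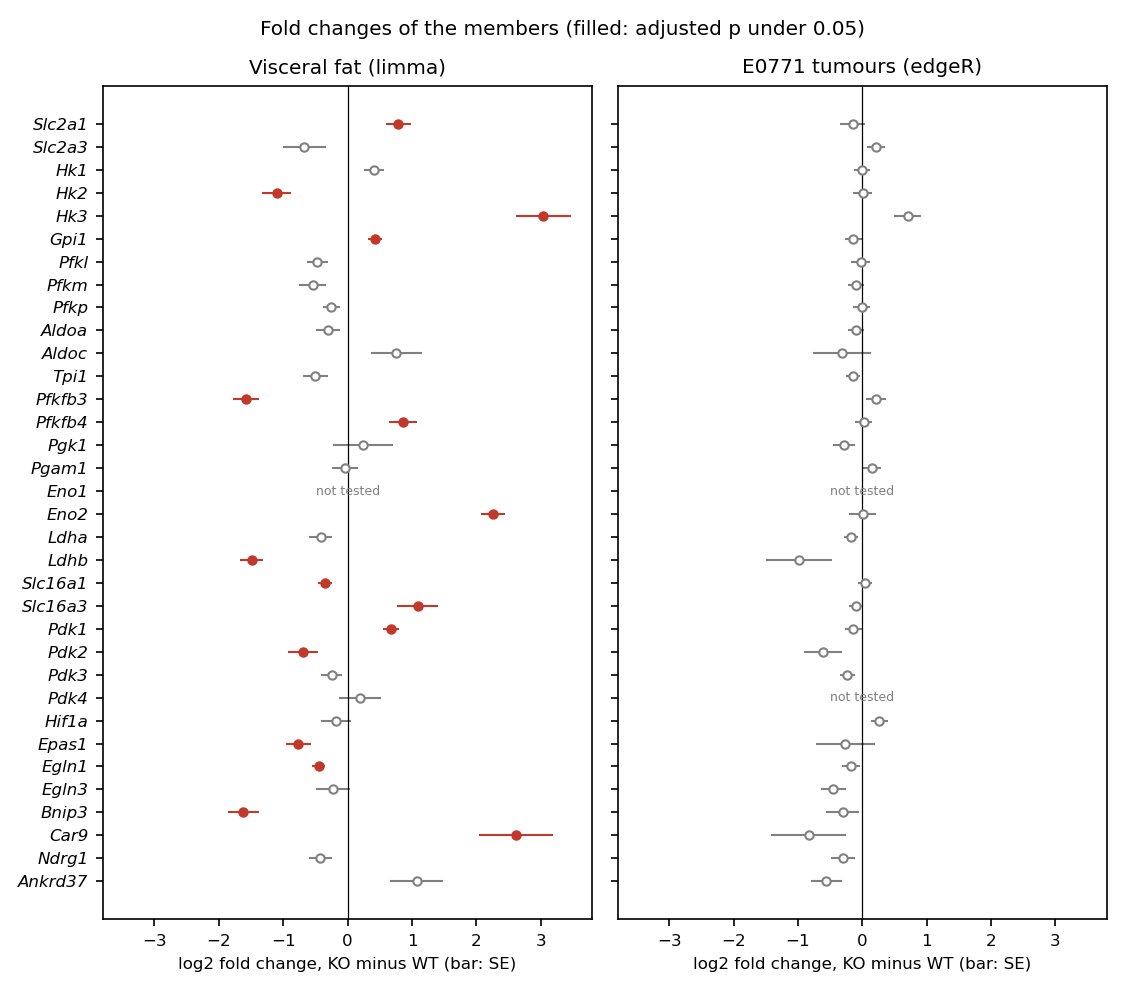
Log2 fold change, KO minus WT, with its standard error, of each member in visceral fat (left, limma) and in tumours (right, edgeR). Filled points passed an adjusted p under 0.05: 16 members in fat and 0 in the tumours, where the fold changes ran from -0.99 (Ldhb) to 0.70 (Hk3).

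Hk3 was the member of smallest p. It measured 1823, 2063 and 2582 normalised reads in WT 1 to 3 and 4743, 3215 and 2558 in KO 1 to 3. KO 1 and KO 2 were above all WT tumours, and KO 3 was just under WT 3, so the groups overlapped. The log2 fold change was 0.70 (SE 0.21, unadjusted p = 0.00599 and adjusted p = 0.552, edgeR). Per kb, Hk3 made up 33.5% ± 5.53 of the hexokinases in KO hosts (27.9% to 38.9%) and 24.1% ± 1.38 in WT hosts (22.5% to 25.2%). The summed macrophage markers ran from 105300 to 147300 with the KO label and from 103200 to 117100 with the WT label. KO 1 had the highest sum and the highest Hk3. WT 1 had the highest sum of the WT hosts and the lowest Hk3 of all tumours. The part of macrophages in the level of Hk3 was not tested.

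Egln3, the hydroxylase that HIF itself induces, measured 6986, 11080 and 7127 in WT 1 to 3 and 7365, 4951 and 6128 in KO 1 to 3. WT 2 was high and KO 2 low, and the rest lay close together. The log2 fold change was -0.45 (SE 0.19, unadjusted p = 0.0384 and adjusted p = 0.71, edgeR). Ankrd37 measured 498.4, 808.7 and 407.2 in WT and 436.7, 317.3 and 409.7 in KO, again with WT 2 highest and KO 2 lowest. Its log2 fold change was -0.56 (SE 0.24, unadjusted p = 0.0406 and adjusted p = 0.712, edgeR).

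The next members by p also failed the test. Pdk2 measured 142.8, 199.5 and 186.9 in WT 1 to 3 and 112.1, 70.1 and 163.9 in KO 1 to 3 (log2 fold change -0.61, SE 0.30, adjusted p = 0.753, edgeR). Hif1a measured 8769, 10020 and 10010 in WT and 9869, 13680 and 11030 in KO (0.26, SE 0.13, adjusted p = 0.757). Pdk3 measured 2509, 2689 and 2256 in WT and 2067, 2039 and 2237 in KO (-0.23, SE 0.12, adjusted p = 0.757). Groups overlapped for Pdk2 and Hif1a, and for Pdk3 the gap between KO 3 and WT 3 was 2237 to 2256. An exact permutation test of 3 against 3 cannot go below 0.1.

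Single tumours stood out across the members. WT 2 was the highest tumour in 14 of 32 members (43.8%, against 14.3% of all genes) and KO 2 the lowest in 20 of 32 (62.5%, against 23.5%). For the 14 members highest in WT 2, KO 2 was the lowest tumour in each case; they were Slc2a1, Pfkm, Tpi1, Pgk1, Ldha, Slc16a3, Pdk1, Pdk2, Pdk3, Egln1, Egln3, Bnip3, Ndrg1 and Ankrd37. Ndrg1 reached 31990 in WT 2 and 16610 in KO 2, with the other 4 tumours at 20250 to 25310. Bnip3 reached 2231 in WT 2 and 976.0 in KO 2, with 1014 to 1510 in the others. Car9 had the widest span, from 95.6 in KO 2 to 956.6 in WT 3. Hif1a ran against them, highest in KO 2. KO 2 also had the highest T cell marker sum, 12660 against 5245 to 7510 in the other tumours, and a neutrophil sum of 4314 against 885.7 to 1830; their part in the levels of the members was not tested.

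**Figure D5:**
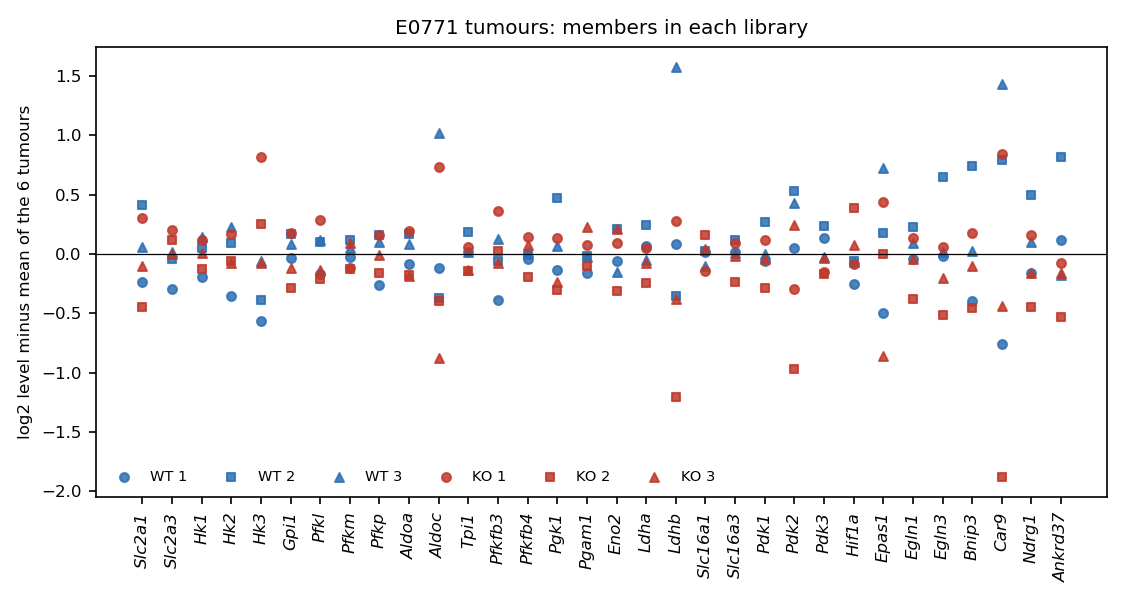
Log2 level of each tested member in each tumour, minus the mean of the 6 tumours (blue WT hosts, red KO hosts; circle, square and triangle for replicates 1, 2 and 3). WT 2 (blue squares) is highest in 14 of 32 members and KO 2 (red squares) lowest in 20 of 32.

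Of the 32 members, 23 (71.9%) had a fold change below 0, against 49.1% of all genes, with a median of -0.14 against 0.00 over all genes. All 7 members of upper glycolysis and all 4 hypoxia-induced genes were on that side, and none of them passed. The count rested in part on single tumours: 18 of 32 (56.2%, all genes 49.9%) were below 0 without WT 2, 19 (59.4%, all genes 48.5%) without WT 3, 20 (62.5%, all genes 49.2%) without KO 2 and 26 (81.2%, all genes 52.6%) without KO 1. Car9 was at -0.83 (SE 0.58, adjusted p = 0.816, edgeR), Bnip3 at -0.30 (SE 0.25) and Ndrg1 at -0.30 (SE 0.18). Ldha, at 62980 to 88160 normalised reads, had -0.17 (SE 0.11) and Slc2a1, at 14390 to 26110, had -0.15 (SE 0.20). Ldhb had the lowest value of all (-0.99, SE 0.51, adjusted p = 0.757), from levels of 29.3 to 206.4. Of 112 tested genes of the wider pathway lists, 0 passed edgeR in the tumours. At an unadjusted edgeR p under 0.05, 2 were higher (3.79% of all genes) and 6 lower (3.11% of all genes).

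The tissues differed in which isoform led, given as shares within a library because each table was scaled alone. Hif1a made up 99.6% ± 0.191 of both HIF alpha subunits per kb in tumours of KO hosts and 34.2% ± 3.33 in KO fat, where Epas1 led in every library. Slc16a3 made up 59.1% ± 5.34 of the lactate carriers in tumours of KO hosts and 10.1% ± 3.04 in KO fat, and Egln3 58.4% ± 0.711 of the hydroxylase pair against 5.35% ± 0.335. Of the 8 members that rose in fat, 3 had a tumour fold change above 0 and 5 below, and of the 8 that fell 3 were above and 5 below; the difference between the tissues was not tested.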

How the data were processed

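Per the labels' protocols, libraries followed the TruSeq stranded mRNA workflow of Illumina. The submitters' processing notes name CASAVA, TopHat, DESeq2 and mm10, without versions. The deposited tumour table holds the authors' raw count for each gene; 5 summary lines that name no gene, with 66.7% to 72.2% of entries, were left out. The fat table was deposited as a scaled signal, that is gene reads divided by 1 size factor per library: 117220 of 117220 values above 0 were whole multiples of a step (0.86 to 1.1) within 0.001. The counting tool, annotation and strand setting are not given in the sources used here.

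Fat values of 10 or more in at least 3 libraries were tested with limma 3.58.1 (trend, log2 of the value plus 1), a scale that understates changes of low genes. Tumour counts were tested with edgeR 4.0.16 (TMM, filterByExpr, quasi-likelihood) in R 4.3.3, with DESeq2 1.42.0 as an alternative. Tests were two-sided, Benjamini-Hochberg adjusted over all genes tested, with a threshold of 0.05, and the scripts were tested on simulated data. Tumour levels are counts scaled by TMM library sizes. Shares per kb use exon lengths of GENCODE M21, which also gave positions. The members and lists were chosen with earlier results of these data known. All members are named; values per library are given for members that passed and for the 6 of smallest p in the tumours, and up to 3 genes that passed per list. Alternatives were another pseudocount, filters, scalings, edgeR and DESeq2 on reads recovered in fat, and leaving out each library.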

Additional observations from a re-analysis of the deposited data

How the results depend on the processing

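In fat, 8 members (Hk2, Hk3, Pfkfb3, Eno2, Ldhb, Pdk1, Bnip3 and Car9) passed in the same direction under all 12 alternatives. With 1 library left out, the number that rose ranged from 4 to 9 and the number that fell from 4 to 10, lowest without WT 3 for both (4 and 4), where calls over all genes were also lowest (1575 rose, 1490 fell); DESeq2 on recovered reads gave 9 and 11, and over all genes 2761 and 3069. The cause was not tested. Over members and alternatives in fat, 352 values kept direction and side of the threshold, 24 lost the call, 12 gained it and 8 changed sign. The gained calls were Slc2a3, Hk1, Ndrg1 and Pfkm without WT 1, Pfkl and Ankrd37 without KO 3, Ldha without KO 1, Tpi1 without WT 4, and Pfkl, Pfkm, Tpi1 and Ankrd37 with DESeq2. The sign changes came from leaving out 1 library, with log2 fold changes of -0.17 to 0.46 for Pgk1, -0.18 to 0.16 for Pgam1, -0.0773 to 0.419 for Pdk4, -0.40 to 0.13 for Hif1a and -0.418 to 0.0709 for Egln3. In the tumours 0 members passed under any of 10 alternatives. Leaving out 1 tumour gave -0.372 to 0.031 for Slc2a1, -0.0978 to 0.0716 for Hk1, -0.15 to 0.13 for Hk2, -0.203 to 0.0677 for Pfkl, -0.133 to 0.0697 for Pfkp, -0.95 to 0.24 for Aldoc, -0.0504 to 0.119 for Pfkfb4, -0.0969 to 0.147 for Eno2, -0.0292 to 0.112 for Slc16a1, -0.617 to 0.0865 for Epas1 and -0.532 to 0.067 for Bnip3. Hk2, at 0.0052, was at -0.0012 with DESeq2, -0.0023 with its size factors and -0.001 without a filter. With the replicate block, 0 members rose and 0 fell, and Hk1 was at 0.0013. Deviations from the group mean gave r over genes of -0.22, 0.01 and -0.22 between tumours of the same number. Between tumours of different numbers r ran from -0.10 to 0.27. With groups of 3 these values are not independent, so they cannot show whether the numbers pair animals. No paired analysis was possible in fat because the WT columns and labels carry different numbers. With 3 or 4 libraries a group, and reads of Eno1, Pgk1, Pgam1 and Bnip3 possibly shared with other genes, mostly pseudogenes, the size of difference that can be detected is limited. Of these, Bnip3 was called in fat, and the part of shared reads in its fall was not tested.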

Other observations

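Other marker lists differed between the fat groups as well, in both directions. Over all genes tested in fat, 16.8% rose and 17.4% fell. Mast cell markers (Cpa3, Tpsb2 and others) had 5 of 7 genes that rose in fat, with summed levels of 4900 to 19540 in KO and 1181 to 3937 in WT. Of 14 markers of lipid-associated macrophages, 11 rose (1108000 to 1636000 against 846200 to 1072000). Cell cycle genes had 7 of 15 that rose, with sums of 14910 to 20420 in KO fat and 3804 to 12070 in WT fat. Of 8 mesothelial markers 6 fell, with sums of 2834 to 5163 in KO fat and 4965 to 9272 in WT fat. Of 8 mural markers 4 fell (16260 to 23770 against 35460 to 40180). In the tumours, the same mast cell sum was 3279 to 10980 with the KO label and 928.0 to 2063 with the WT label. Of 6 markers tested with edgeR 0 passed the adjusted threshold, where 0% of all genes did. All 6 had an unadjusted edgeR p under 0.05, where 3.79% of all genes were higher and 3.11% lower. DESeq2 called 5 of 7, where it called 0.475% of genes.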
